A study of Mus musculus with 8 samples.

Results

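The 41 genes described here encode condensin, the factors that build the mitotic spindle and divide the cell, the kinases and ubiquitin-pathway proteins that time mitosis, and the transcription factors that drive this programme. They were taken by gene symbol from the deposited count table, where 41 of its 26642 rows carry one of these symbols. Messenger RNA was sequenced from CT26, an established mouse colon carcinoma line grown in RPMI medium with fetal bovine serum. The unedited WT cells gave 4 libraries, and cells with a knockout of both Tead1 and Tead4, genes for DNA-binding partners of the Hippo pathway coactivators YAP and TAZ, gave another 4. The labels name no further allele or treatment, and do not say how the edit was made, whether the knockout cells are 1 clone, or whether libraries of a genotype came from separate cultures. The p-values therefore reflect only how these libraries scatter, and part of that scatter may be technical.

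Condensin is a ring-shaped complex built on the SMC2 and SMC4 ATPases. Condensin I and condensin II each add their own kleisin and HEAT-repeat subunits to this core and compact chromosomes for mitosis. Entry into mitosis is driven by CDK1 with cyclin B, helped by CDC25 phosphatases and by the Polo and Aurora kinases. Its exit is driven by the anaphase-promoting complex, a ubiquitin ligase that uses CDC20 and then FZR1 as coactivators. Most of these genes are transcribed periodically, with mRNA that peaks in G2 and mitosis, under the MuvB core complex with B-MYB (the product of Mybl2) and FOXM1. MuvB reads the cell cycle genes homology region, a short promoter element, often near a CCAAT box.

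Total counts per library lay between 29679405 and 32774905, and the lowest count of any member in any library was 241, so counting error is small beside the spread between libraries. Levels are given as CPM, a library's counts brought to a common total with TMM factors, in the order of replicates 1 to 4. A fold change is a log2 difference, negative where the knockout libraries were lower, and is followed by its standard error (±) and the Benjamini-Hochberg adjusted p of edgeR's two-sided quasi-likelihood test over all 13265 rows tested. A gene is said to have fallen where that p was under 0.05. Tead1 itself was at 319, 155, 142 and 209 CPM in WT and at 51.2, 64.8, 76.3 and 77.8 CPM in the knockout libraries (fold change -1.61 ± 0.27, edgeR adjusted p = 0.00217). Tead4 was at 52.1, 36.7, 39.4 and 63.2 CPM and at 25.8, 23.3, 31.2 and 37.0 CPM (fold change -0.71 ± 0.22, edgeR adjusted p = 0.0261), with WT replicate 2 below knockout replicate 4. The call of Tead4 was lost when scaled by upper-quartile factors or library size alone. It was also lost without WT replicate 1 or 4 or knockout replicate 2 or 3 (edgeR adjusted p up to 0.08). Of 9 colon epithelial markers, 6 stayed under 1 CPM in all libraries, among them Epcam at 0, and the 9 summed to 56.7 to 106 CPM in WT and 105 to 143 CPM in the knockout libraries, mostly from Krt18 and Krt20. Of these 9, Krt18 was called higher (38.5 ± 2.93 to 76.3 ± 8.65 CPM, fold change 0.99 ± 0.14, edgeR adjusted p = 0.00107). In contrast, the 7 mesenchymal markers summed to 3853 to 5501 CPM in WT and 4036 to 6122 CPM in the knockout libraries, mostly from Vim and Col1a2, which were not called. Of the 7, 4 were called higher in the knockout libraries: Col3a1 (31.3 ± 21.0 to 143 ± 60.5 CPM), Pdgfra (8.01 ± 2.72 to 35.9 ± 8.43 CPM), Pdgfrb (39.7 ± 18.4 to 84.9 ± 22.1 CPM) and Dcn, at or under 0.142 CPM in WT and at 2.37, 5.02, 14.4 and 9.50 CPM in the knockout libraries (edgeR adjusted p = 0.0152, 0.000837, 0.026 and 0.000803). Over all rows tested 20.9% were called higher. The call of Pdgfrb was lost without WT replicate 1 or 4 or knockout replicate 2, 3 or 4 (edgeR adjusted p up to 0.0759). The 7 leukocyte markers summed to at most 0.478 CPM in WT and 4.17 CPM in the knockout libraries, where Lyz2 alone was called higher (edgeR adjusted p = 0.00855), and the 4 endothelial markers stayed under 1 CPM throughout. The part of these markers in the results was not tested.

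Knockout replicate 1 stood apart from the other knockout libraries for these genes. It had the highest knockout value for 41 of 41 members, against 40.9% of all rows tested, and knockout replicate 4 had the lowest for 38 (28.5% of all rows). The median member was at 65.5% of its WT mean in knockout replicate 1, and at 32.5%, 21.3% and 17.1% in replicates 2, 3 and 4. The 41 members together took 0.656% of all counts in knockout replicate 1 and 0.363%, 0.26% and 0.218% in the others, against 0.89% to 1.12% in the WT libraries. For that reason values are also given without knockout replicate 1. This choice rests on the values of the members themselves, so the p-values without that library are descriptive and add no support. The WT libraries fell into pairs: replicates 1 and 4 both lay above replicates 2 and 3 for 27 members (32.8% of all rows) and both below them for 12 (35.4% of all rows). The WT pairs showed in the libraries as a whole too, while knockout replicate 1 stood apart there by some measures only. Rows with a count above 0 numbered 14345 in knockout replicate 1 and 14566 to 15430 in WT, but 17759 to 17948 in the other knockout libraries. Unannotated loci took 1.26% of counts in knockout replicate 1 and 1.25% to 1.44% in WT, but 1.59% to 1.86% in the other knockout libraries. Compared by their counts over genes, WT replicates 1 and 4 differed with a chi-square of 34.7 per degree of freedom and replicates 2 and 3 with 35.01, against 201 to 242 for the other WT pairs. The WT libraries thus form 2 pairs rather than 4 evenly spaced replicates, and what separates the libraries was not tested.

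These genes fell together in the knockout libraries. Of 41 members, 36 fell and none rose, where 20.6% of all rows tested were called lower and 20.9% higher in the knockout libraries. The members were chosen with earlier results of these data known, so the contrast with all rows is descriptive. With upper-quartile factors or library size alone the share of calls in all rows that were higher was 64.6% or 63.5% in place of 50.4%, and 35 or 36 members fell. A fall of at least 2-fold was found for 31 (8.56% of all rows), and all 41 fold changes were below 0. The median was -1.46, against 0.02 over all rows. In 33 members every knockout library lay below every WT library (19.6% of all rows), and all 33 were among those that fell. Without knockout replicate 1, all 41 members fell (24.6% of all rows then tested), with a median of -2.08 against 0.04 over all rows. That library is the one nearest WT for these genes, and leaving out another lowered the count: 27, 30 and 31 members fell without knockout replicate 2, 3 or 4, and 29, 34, 35 and 32 without WT replicate 1, 2, 3 or 4. Knockout replicates 2, 3 and 4 lay below every WT library for each of the 41. That set of libraries was taken after knockout replicate 1 was seen to be highest, and the share of all rows was not computed. In bulk RNA, fewer dividing cells and less of these mRNAs per dividing cell cannot be told apart. The plot of levels by library shows the 41 genes with every knockout library.

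**Figure D1:**
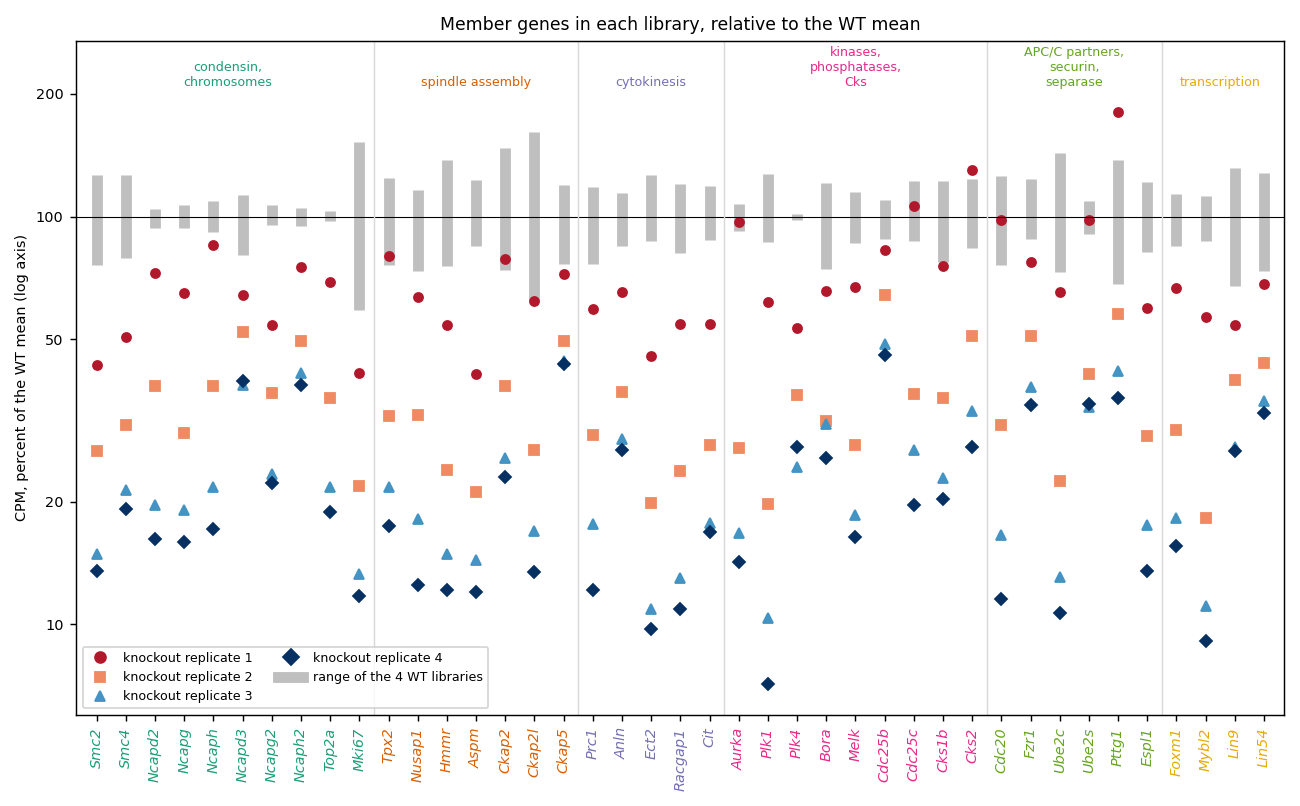
CPM of each member in the 4 knockout libraries as a percent of its WT mean (y axis, log scale), with grey bars for the range of the 4 WT libraries and genes grouped by role on the x axis. Knockout replicate 1 is the top knockout point for all 41 genes and lies above the lowest WT library for 8, while replicates 2, 3 and 4 lie below the WT range for all 41. Those 3 libraries were set apart after the values were seen, and the share of all rows was not computed.

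All 10 condensin and chromosome structure genes fell (median -1.50, and -2.01 without knockout replicate 1). The shared core gene Smc2 (ENSMUSG00000028312, GRCm38 chromosome 4, 52439243 to 52488260, plus strand) was at 380.5, 229, 247 and 348 CPM in WT and at 130.1, 80.3, 44.7 and 40.6 CPM in the knockout libraries (fold change -2.03 ± 0.37, edgeR adjusted p = 0.00323). Smc4, its partner ATPase, went from 538 ± 121 to 164 ± 77.0 CPM (SD, n = 4; fold change -1.71 ± 0.31, edgeR adjusted p = 0.00325). For both core genes even knockout replicate 1 was below the lowest WT library, at 43.2% and 50.6% of the WT mean, and without that library their fold changes were -2.46 and -2.09. Among the subunits of condensin II, Ncapg2 (ENSMUSG00000042029, GRCm38 chromosome 12, 116405402 to 116463731, plus strand) stood at 114, 117, 125 and 111 CPM in WT and 63.1, 43.2, 27.3 and 25.9 CPM in the knockout libraries (fold change -1.55 ± 0.27, edgeR adjusted p = 0.00263). Its WT values were tight, and every knockout value lay well below them. Ncapd3 and Ncaph2, the other subunits of condensin II, fell with smaller fold changes (-1.04 and -0.97, edgeR adjusted p = 0.00377 and 0.0068). The subunits of condensin I, Ncapd2, Ncapg and Ncaph, fell by 1.44, 1.63 and 1.30 on the log2 scale (edgeR adjusted p = 0.0202, 0.00975 and 0.036). Ncaph, the kleisin of condensin I, had the weakest support of the group: WT libraries were at 131, 118, 109 and 119.6 CPM and knockout libraries at 102, 46.0, 25.9 and 20.4 CPM. Its groups did not overlap, but knockout replicate 1 lay close to WT, and the call did not survive leaving out WT replicate 1, 2 or 4 or knockout replicate 2, 3 or 4 (edgeR adjusted p up to 0.0875). Without knockout replicate 1 its fold change was -1.97 (edgeR adjusted p = 0.000837). Ncapd2 lost its call without knockout replicate 2 (edgeR adjusted p = 0.0516).

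Mki67 and Top2a are chromosome proteins used as markers of proliferating cells. Mki67, which encodes the Ki-67 coat of mitotic chromosomes, was at 1434, 695, 555 and 1080.3 CPM in WT and at 389.9, 206, 125 and 111 CPM in the knockout libraries (fold change -2.18 ± 0.45, edgeR adjusted p = 0.00514). Its WT libraries differed by 2.58-fold among themselves, and still the lowest of them exceeded the highest knockout library. With knockout replicate 1 left out its fold change was -2.69 (edgeR adjusted p = 0.00104). Top2a, which encodes the topoisomerase that untangles sister chromatids, had nearly equal WT libraries (668, 655, 633 and 632 CPM) and widely spread knockout libraries (446, 232, 141 and 122 CPM; fold change -1.46 ± 0.37, edgeR adjusted p = 0.0119).

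Levels of different subunits can be compared only per length of transcript. Per kb of annotated exon, WT levels of the core were 103 ± 23.1 for Smc4 and 55.0 ± 13.6 CPM per kb for Smc2 (SD, n = 4). Ncaph2 stood at 96.3 ± 4.94 CPM per kb, a level that lay within the range of Smc4, and Ncapd2 at 47.6 ± 2.18, within the range of Smc2. Ncapg and Ncaph were lower, at 28.5 ± 1.87 and 27.7 ± 2.05 CPM per kb, and overlapped each other. Ncapd3 and Ncapg2 were lowest, at 14.4 ± 2.14 and 11.7 ± 0.576 CPM per kb, with overlapping WT libraries. Subunits of condensin I lay on average below those of condensin II in both genotypes. The mean over Ncapd2, Ncapg and Ncaph was 36.0, 34.4, 33.9 and 34.1 CPM per kb in WT and 25.6, 12.4, 6.93 and 5.66 in the knockout libraries. That over Ncapd3, Ncapg2 and Ncaph2 was 40.0, 42.2, 41.5 and 39.7 CPM per kb in WT and 29.3, 19.9, 16.1 and 15.2 in the knockout libraries, and rests mostly on Ncaph2. By these means condensin II subunits kept a larger part of their WT level than condensin I subunits in knockout replicates 2, 3 and 4. No ratio of subunit pairs passed the test of that difference, which a few ratios alone could not pass. Levels per length depend on the annotated exons: with the longest transcript as the length, WT means were 122 for Ncaph2, 125 for Smc4 and 24.9 CPM per kb for Ncapg2. By that length Ncapd2, Smc2, Ncapg and Ncaph were at 64.4, 55.7, 50.7 and 44.3 CPM per kb, and Ncapd3 at 20.6. How far Ncapg and Ncaph lay below Smc2, and which of Ncapd3 and Ncapg2 was lower, thus depends on the length used. The means by library were taken per kb of annotated exon only.

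**Figure D2:**
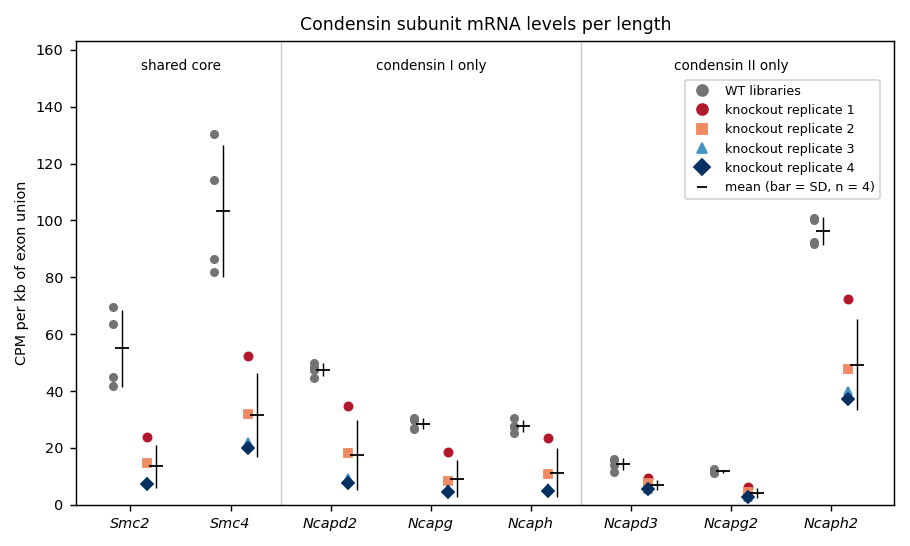
CPM per kb of exon union (y axis) of the 8 condensin subunit genes in each WT library (grey) and each knockout library (coloured), with the mean and SD of 4 libraries beside each group. Smc4 and Ncaph2 have the highest levels in both genotypes, and all 8 genes are lower in each knockout library than in every WT library.

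All 7 spindle assembly genes fell (median -1.66, and -2.26 without knockout replicate 1). Aspm, whose product focuses spindle poles (ENSMUSG00000033952, GRCm38 chromosome 1, 139454772 to 139494091, plus strand), was at 228, 178, 157 and 179 CPM in WT and at 76.1, 39.2, 26.7 and 22.2 CPM in the knockout libraries (fold change -2.18 ± 0.36, edgeR adjusted p = 0.00217). Ckap5, which encodes a microtubule polymerase, fell least in the group, from 394, 304, 253 and 371 CPM to 239.6, 163, 146 and 143 CPM (fold change -0.93 ± 0.21, edgeR adjusted p = 0.00805). In Ckap5 knockout replicates 2 to 4 lay close together, at 43.4% to 49.4% of the WT mean, and in Aspm they lay at 12.0% to 21.1%. The groups of Aspm and Ckap5 did not overlap, and without knockout replicate 1 their fold changes were -2.67 and -1.15. Hmmr, a spindle pole and hyaluronan-binding protein gene, fell by 1.93 (SE 0.45, edgeR adjusted p = 0.00833), and Nusap1, a microtubule bundler, by 1.66 (SE 0.44, edgeR adjusted p = 0.0149). Tpx2, which activates Aurora A on spindle microtubules, was at 435, 323, 265 and 373 CPM in WT and at 280.2, 113, 75.7 and 60.8 CPM in the knockout libraries (fold change -1.40 ± 0.44, edgeR adjusted p = 0.0285). Knockout replicate 1 lay above WT replicate 3 here, so the groups overlapped. The related genes Ckap2 and Ckap2l fell by 1.27 and 1.75 on the log2 scale (edgeR adjusted p = 0.0277 and 0.0195). The calls of Tpx2 and Ckap2 did not survive leaving out WT replicate 1 or 4 or knockout replicate 2, 3 or 4 (edgeR adjusted p up to 0.078 and 0.0814), and that of Ckap2l without WT replicate 1 or knockout replicate 2 (up to 0.0589).

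All 5 cytokinesis genes fell, with the lowest median of the 6 role groups (-1.78, and -2.36 without knockout replicate 1). Ect2, the exchange factor that activates RhoA at the division plane (ENSMUSG00000027699, GRCm38 chromosome 3, 27097222 to 27153878, minus strand), had the largest fall of all 41 genes. It was at 360.1, 261, 247 and 270.4 CPM in WT and at 129, 56.6, 31.0 and 27.7 CPM in the knockout libraries (fold change -2.22 ± 0.45, edgeR adjusted p = 0.0051). Racgap1, which encodes the centralspindlin subunit that recruits ECT2, fell from 759 ± 137 to 194 ± 153 CPM (SD, n = 4; fold change -1.97 ± 0.47, edgeR adjusted p = 0.00929). Ect2 and Racgap1 were at 45.4% and 54.6% of the WT mean in knockout replicate 1 and at 9.74% and 10.9% in replicate 4. The order from replicate 1 down to replicate 4 held for 38 of the 41 members, so it was not particular to these partners. The share of all rows in that order was not computed, so whether it is particular to the members is not known. Cit, which encodes citron kinase of the midbody, was at 83.5, 61.3, 65.7 and 70.03 CPM in WT and at 38.3, 19.3, 12.4 and 11.8 CPM in the knockout libraries (fold change -1.78 ± 0.35, edgeR adjusted p = 0.00455). Prc1, a bundler of central spindle microtubules, had 304, 241, 197 and 284 CPM in WT and 153, 74.8, 45.1 and 31.0 CPM in the knockout libraries (fold change -1.76 ± 0.43, edgeR adjusted p = 0.0108). Anln, the contractile ring scaffold, went from 677 ± 109 to 267 ± 121 CPM (fold change -1.34 ± 0.29, edgeR adjusted p = 0.00608). None of these 5 calls was lost with a library left out, and the groups of all 5 were separate. Ect2, Racgap1, Cit, Prc1 and Anln had fold changes of -2.90, -2.67, -2.29, -2.36 and -1.71 without knockout replicate 1.

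Among 9 genes of mitotic kinases, CDC25 phosphatases and Cdk-binding Cks proteins, 6 fell and 3 were not called (median -1.37), and all 9 fell without knockout replicate 1 (median -1.87). Plk4, the kinase of centriole duplication (ENSMUSG00000025758, GRCm38 chromosome 3, 40800019 to 40816883, plus strand), had nearly constant WT levels, 87.1, 85.6, 84.9 and 87.7 CPM, and was at 46.0, 31.6, 20.9 and 23.5 CPM in the knockout libraries (fold change -1.50 ± 0.23, edgeR adjusted p = 0.00174). It had the smallest adjusted p of the 41 genes, and a fold change of -1.78 without knockout replicate 1. Plk1, the main Polo kinase of mitosis, had a larger but more scattered fall, from 269, 183, 193 and 199 CPM to 130.2, 41.5, 21.9 and 15.04 CPM (fold change -2.02 ± 0.59, edgeR adjusted p = 0.0215). In knockout replicate 4 Plk1 was at 7.13% of its WT mean, the lowest value of any member in any library, while Plk4 there was at 27.3%. The call of Plk1 was lost without WT replicate 1 or knockout replicate 2 (edgeR adjusted p up to 0.0638), and without knockout replicate 1 its fold change was -3.03 (edgeR adjusted p = 0.000463). Bora, an activator of the Aurora A and Plk1 route into mitosis, went from 51.4, 37.0, 31.8 and 50.2 CPM to 28.1, 13.4, 13.2 and 10.9 CPM (fold change -1.38 ± 0.31, edgeR adjusted p = 0.00706). Every Bora value in the knockout libraries was below the lowest WT library. Melk, a kinase gene of dividing cells, fell by 1.63 on the log2 scale (SE 0.41, edgeR adjusted p = 0.0116).

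Aurka and the second members of the CDC25 and Cks pairs were the genes not called. Aurka, which encodes Aurora A, was at 149.8, 149.5, 129 and 129.9 CPM in WT and at 135, 37.8, 23.4 and 19.8 CPM in the knockout libraries (fold change -1.37 ± 0.54, edgeR adjusted p = 0.0657). Knockout replicate 1 fell among the WT values and the others were at 14.2% to 27.1% of the WT mean. Cdc25c, a phosphatase that activates CDK1, showed the same arrangement, with 34.1, 46.1, 37.6 and 32.7 CPM in WT and 40.0, 13.8, 10.1 and 7.37 CPM in the knockout libraries (fold change -1.08 ± 0.46, edgeR adjusted p = 0.0843). Its relative Cdc25b fell modestly, from 222 ± 19.9 to 134 ± 37.9 CPM (SD, n = 4; fold change -0.73 ± 0.20, edgeR adjusted p = 0.0168), a call lost without knockout replicate 3 or 4 (edgeR adjusted p up to 0.0505). Cks2, a small Cdk-binding protein gene, was at 66.3, 71.9, 88.3 and 59.8 CPM in WT and at 93.2, 36.6, 23.8 and 19.5 CPM in the knockout libraries (fold change -0.73 ± 0.44, edgeR adjusted p = 0.202). Here knockout replicate 1 was above all 4 WT libraries, and the other knockout libraries were below them. Cks1b, its paralog, fell from 92.2, 124, 146 and 115 CPM to 90.3, 42.9, 27.3 and 24.1 CPM (fold change -1.37 ± 0.39, edgeR adjusted p = 0.0189), a call lost without knockout replicate 2 (edgeR adjusted p = 0.0548). The Cks proteins are similar in sequence, and the sources at hand do not state how reads that match several genes were counted, so the level of each is uncertain. Without knockout replicate 1 the fold changes of Aurka, Cdc25c and Cks2 were -2.38, -1.87 and -1.44 (edgeR adjusted p = 0.000301, 0.000658 and 0.00189).

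Of 6 genes that act with the anaphase-promoting complex, 4 fell and 2 were not called (median -1.17), and all 6 fell without knockout replicate 1 (median -1.90). Ube2c, the E2 enzyme that starts ubiquitin chains for this ligase, was at 566, 289.6, 291 and 438 CPM in WT and at 259, 89.0, 51.7 and 42.3 CPM in the knockout libraries (fold change -1.84 ± 0.54, edgeR adjusted p = 0.0224). Its call was lost without WT replicate 1 or knockout replicate 2 or 3 (edgeR adjusted p up to 0.066). Ube2s, the E2 enzyme that elongates the chains, was at 341, 409.8, 410.4 and 345 CPM in WT and at 368, 154, 129 and 130.2 CPM in the knockout libraries (fold change -0.95 ± 0.33, edgeR adjusted p = 0.0423). In Ube2s the 3 lower knockout libraries lay together and replicate 1 lay among WT, and its call was lost with upper-quartile factors and when any 1 library other than knockout replicate 1 was left out (edgeR adjusted p up to 0.113). Espl1, which encodes separase, the protease that cuts cohesin at anaphase (ENSMUSG00000058290, GRCm38 chromosome 15, 102296266 to 102324357, plus strand), was at 186, 220.2, 251 and 169 CPM in WT and at 123, 59.6, 36.1 and 27.9 CPM in the knockout libraries (fold change -1.74 ± 0.41, edgeR adjusted p = 0.00934). Fzr1, the coactivator of late mitosis and G1, was at 87.0, 91.1, 117 and 83.3 CPM and 73.0, 48.3, 36.0 and 32.5 CPM (fold change -0.99 ± 0.25, edgeR adjusted p = 0.0124). The groups of Ube2c, Espl1 and Fzr1 did not overlap, and their fold changes without knockout replicate 1 were -2.71, -2.34 and -1.29.

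The anaphase genes not called were Cdc20 and Pttg1. Cdc20, the coactivator of early mitosis, was at 195, 196, 249 and 149.7 CPM in WT and at 194, 60.8, 32.7 and 22.8 CPM in the knockout libraries (fold change -1.35 ± 0.58, edgeR adjusted p = 0.0844). Its knockout replicate 1 lay within the WT range. Pttg1, which encodes securin, the inhibitor of separase, had the smallest change of the 41 genes, with 25.2, 46.5, 40.4 and 23.1 CPM in WT and 61.0, 19.5, 14.2 and 12.1 CPM in the knockout libraries (fold change -0.34 ± 0.49, edgeR adjusted p = 0.6). Knockout replicate 1 exceeded every WT library in Pttg1, at 181% of the WT mean, and the WT libraries themselves split into a lower pair (replicates 1 and 4) and a higher pair (2 and 3). In the same library the transcript of its target, Espl1, was at 59.5% of the WT mean. Without knockout replicate 1 the fold changes were -2.36 for Cdc20 and -1.16 for Pttg1 (edgeR adjusted p = 0.00105 and 0.0118).

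All 4 transcription genes fell (median -1.53, and -1.97 without knockout replicate 1). Mybl2, which encodes B-MYB, was at 214, 165, 173 and 207 CPM in WT and at 107, 34.7, 21.1 and 17.3 CPM in the knockout libraries (fold change -2.07 ± 0.52, edgeR adjusted p = 0.0116). Foxm1, the forkhead factor of the G2 and mitosis genes (ENSMUSG00000001517, GRCm38 chromosome 6, 128362967 to 128376146, plus strand), went from 669, 563, 497 and 623 CPM to 393, 176, 107 and 91.6 CPM (fold change -1.62 ± 0.42, edgeR adjusted p = 0.0131). Both were separate between genotypes, with knockout replicate 1 at 56.6% and 66.9% of the WT mean and fold changes of -2.98 and -2.25 without it. Lin9 and Lin54 encode MuvB core subunits, of which LIN54 binds the promoter element itself. Lin9 was at 65.9, 41.9, 33.9 and 59.0 CPM in WT and at 27.2, 19.98, 13.6 and 13.3 CPM in the knockout libraries (fold change -1.44 ± 0.29, edgeR adjusted p = 0.00457). Lin54 was at 107, 72.6, 61.9 and 94.9 CPM and 57.4, 36.8, 29.8 and 27.7 CPM (fold change -1.15 ± 0.26, edgeR adjusted p = 0.00801). Neither gene overlapped between genotypes. In knockout replicates 2, 3 and 4 Lin9 and Lin54 kept 26.6% to 43.7% of their WT means, and Mybl2 9.12% to 18.3%, and that difference was not tested.

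**Figure D3:**
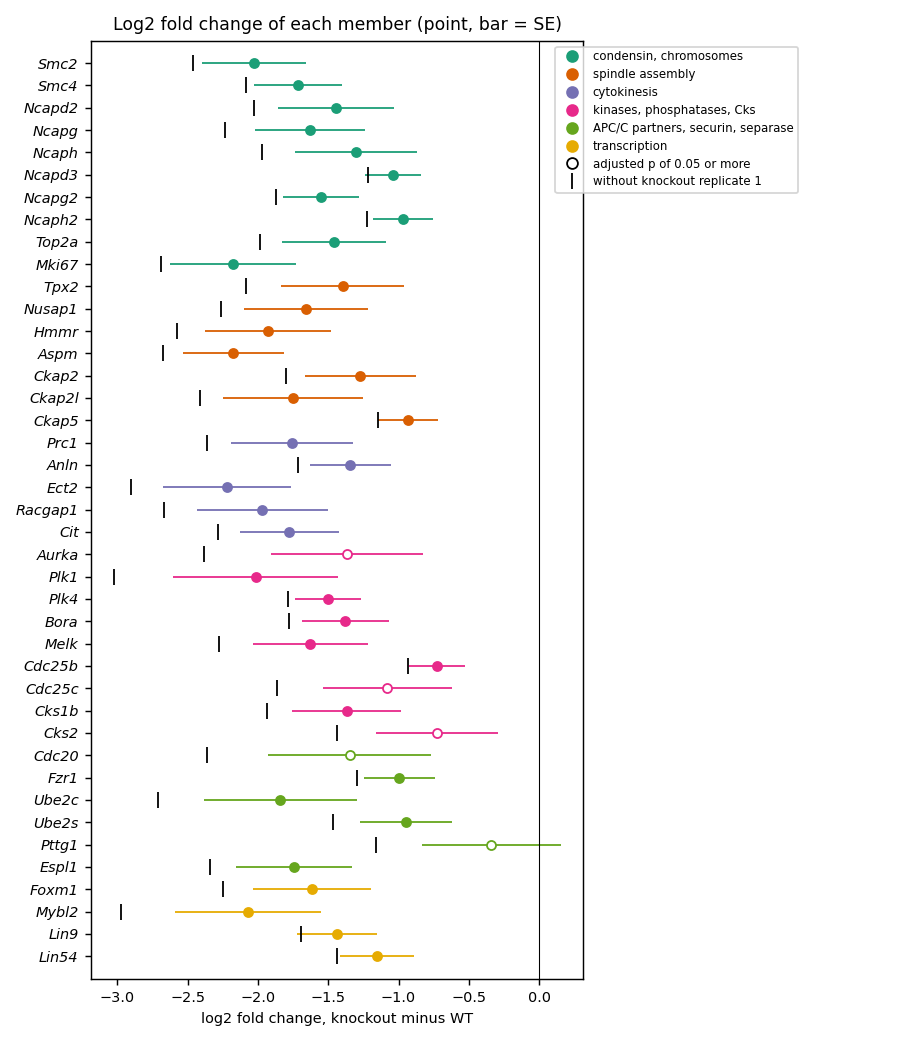
Log2 fold change of each member, knockout minus WT (point, with its SE as a bar), coloured by role, with open points for the 5 genes at an adjusted p of 0.05 or more and a black tick for the value without knockout replicate 1. Every point and every tick lies below 0, and the ticks lie to the left of all 41 points.

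Because these genes fell together, their promoters were searched for the element read by MuvB. RefSeq promoter windows on GRCm38.p6, from 250 bases before to 50 after the start, were found for 35 of the 41 genes. The letters TTTGAA, the core of the cell cycle genes homology region, were present on either strand in 23 of 35 (65.7%), against 20.2% of the 27025 genes in the promoter table and 14.4% of those tested here. CCAAT was present on either strand in 23 of 35 (65.7%), against 41.1% of all genes, and a window with both was found for 20 of 35 (57.1%), against 7.97%. The letters GGAATG, the core of the element bound by TEAD factors, were present in 6 of 35 (17.1%), against 16.6% of all genes. In the 150 bases nearest the start TTTGAA was still found in 20 of 35 (57.1%), against 9.23% of all genes. A match is a run of letters and not a measured binding site.

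The 100 bases before a RefSeq start are printed for 5 members that fell and hold TTTGAA and CCAAT together in that stretch, since these carry the pattern. They are also printed for 3 members that were not called with all libraries in the fit. In 9 of the 35 members more than 30 of these 100 bases lie inside the gene as GENCODE annotates it, and in 5 all 100 do (Ncapd2, Cit, Fzr1, Ube2s and Pttg1), so none of the 9 is printed, though the shares above include them. Each reads 5′ to 3′ toward the start on the gene's strand. Capitals mark TTTGAA or its reverse complement and CCAAT or its reverse complement, none of which overlap. Prc1 is printed from a later RefSeq start, since at its first start TTTGAA lay at -5 to 1. The bases inside the gene were counted from the first start of each gene only. Ncapd3, counted among those with TTTGAA, holds it only in the window of another start, at 27060166 to 27060465 of chromosome 9. That window lies inside the gene as GENCODE annotates it, which starts at 27030175. In Espl1 TTTGAA begins at the GENCODE start of the gene, not before it.
Top2a, chr11:99024190-99024289, minus strand: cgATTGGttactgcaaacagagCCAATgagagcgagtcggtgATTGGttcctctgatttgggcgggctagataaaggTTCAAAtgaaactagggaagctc
Ckap2l, chr2:129297213-129297312, minus strand: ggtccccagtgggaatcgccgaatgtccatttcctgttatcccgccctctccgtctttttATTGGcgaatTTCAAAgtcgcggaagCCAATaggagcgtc
Ckap5, chr2:91526662-91526761, plus strand: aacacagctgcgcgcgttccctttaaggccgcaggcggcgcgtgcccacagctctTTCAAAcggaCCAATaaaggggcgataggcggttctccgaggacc
Prc1, chr7:80294376-80294475, plus strand: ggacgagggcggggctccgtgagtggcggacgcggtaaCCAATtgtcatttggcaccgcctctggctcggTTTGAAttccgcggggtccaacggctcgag
Espl1, chr15:102296193-102296292, plus strand: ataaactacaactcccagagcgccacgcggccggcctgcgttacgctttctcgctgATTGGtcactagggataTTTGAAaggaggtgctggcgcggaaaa
Cdc20, chr4:118437344-118437443, minus strand: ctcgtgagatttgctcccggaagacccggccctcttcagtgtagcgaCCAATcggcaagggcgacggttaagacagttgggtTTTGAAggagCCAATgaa
Aurka, chr2:172370571-172370670, minus strand: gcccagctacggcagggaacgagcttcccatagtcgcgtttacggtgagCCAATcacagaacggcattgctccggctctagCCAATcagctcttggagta
Cks2, chr13:51645132-51645231, plus strand: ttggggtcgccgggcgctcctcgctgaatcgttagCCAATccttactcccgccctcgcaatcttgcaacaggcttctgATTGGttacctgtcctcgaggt
Cdc20, Aurka and Cks2 are those not called with all libraries in the fit. Their fold changes were -1.35, -1.37 and -0.73, and each fell without knockout replicate 1, so they are not a group of unchanged genes. Cdc20 carries both elements close to its start, as the printed genes that fell do. Aurka carries CCAAT upstream and TTTGAA only after its start, and Cks2 carries CCAAT without TTTGAA. Among the 31 members that fell and have a promoter in the table, 21 hold TTTGAA in the whole window, and of the 4 not called 2 do. With so few genes not called, all lower without knockout replicate 1, these counts cannot show whether the letters go with the fall. Plk1 holds TTTGAA at 31 to 36 bases after its start.

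Other genes of the same machinery were taken in 5 lists. Of 75 such genes, 35 fell and 2 rose, with a median of -0.64, where 20.6% of all rows were called lower and 20.9% higher. Without knockout replicate 1 42 of the 75 fell, and without knockout replicate 2 only 23 did. With upper-quartile factors 28 fell and 6 rose, and with library size alone 29 fell and 7 rose. In the list of cohesin, its loader and its regulators 8 of 14 fell and none rose (median -0.60). Stag1, a cohesin subunit gene, fell from 154 ± 30.2 to 79.0 ± 12.3 CPM (SD, n = 4; fold change -0.96 ± 0.18, edgeR adjusted p = 0.00354) and Rad21, the kleisin of cohesin, from 771 ± 98.1 to 362 ± 102 CPM (fold change -1.09 ± 0.21, edgeR adjusted p = 0.0041). For the core of the anaphase-promoting complex with its inhibitor Fbxo5, 5 of 15 fell and 1 rose (median -0.57), a share not far from that of all rows. The increase was Anapc13, a small scaffold subunit gene, from 2.69, 4.64, 5.76 and 3.12 CPM in WT to 16.5, 14.1, 13.6 and 11.5 CPM in the knockout libraries (fold change 1.78 ± 0.27, edgeR adjusted p = 0.00153), while the subunit gene Cdc16 fell from 89.3 ± 2.84 to 57.2 ± 2.59 CPM (fold change -0.64 ± 0.12, edgeR adjusted p = 0.00296). Every knockout library lay above every WT library in Anapc13.

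In the remainder of the DREAM and MuvB complexes 5 of 11 fell and none rose (median -0.46). The members with the smallest p were Tfdp1, the dimer partner of E2F factors, from 347 ± 15.6 to 138 ± 31.8 CPM (fold change -1.33 ± 0.17, edgeR adjusted p = 0.000871), and Rbl1, which encodes the pocket protein p107, from 149.6 ± 10.4 to 57.5 ± 22.1 CPM (fold change -1.38 ± 0.24, edgeR adjusted p = 0.00258). Of the gamma-tubulin ring and augmin genes, which nucleate spindle microtubules, 9 of 15 fell and none rose (median -0.85). They included the ring subunit genes Tubgcp3 (fold change -1.04, edgeR adjusted p = 0.000918) and Tubgcp4 (-1.20, edgeR adjusted p = 0.00129). In the list of the central spindle, RhoA and abscission 8 of 20 fell and 1 rose (median -0.73). Kif14, a kinesin of the midbody, went from 66.9, 58.4, 61.0 and 59.9 CPM to 29.5, 12.7, 10.4 and 8.65 CPM (fold change -2.01 ± 0.35, edgeR adjusted p = 0.00267), and the septin gene Sept9 was the increase, from 105, 158, 160.1 and 128 CPM to 262, 221, 214 and 215 CPM (fold change 0.73 ± 0.17, edgeR adjusted p = 0.0081). The difference between these lists and the 41 members was not tested, and both were chosen with earlier results of these data known. The medians of the 5 lists lay between -0.85 and -0.46, and those of the 6 role groups between -1.78 and -1.17. The Sept2 row used was ENSMUSG00000026276, since a second row carries that symbol.

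**Figure D4:**
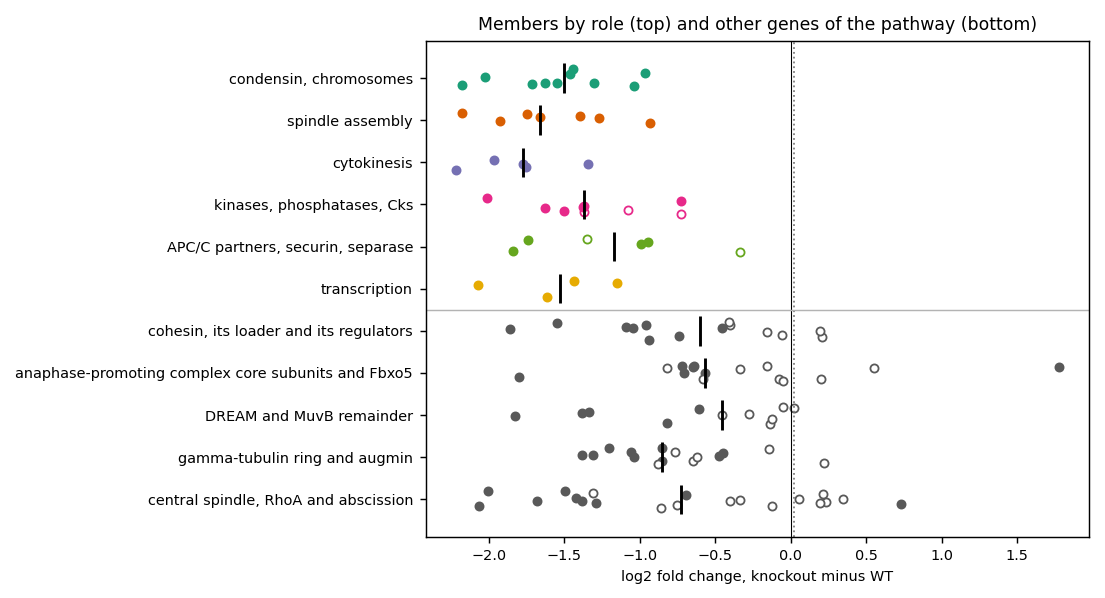
Log2 fold change, knockout minus WT (x axis), of each member by role (6 upper rows) and of the other genes of the pathway by list (5 lower rows), with filled points for genes past an adjusted p of 0.05, a black bar for each median and a dotted line for the median of all rows. The medians of the role groups, -1.78 to -1.17, all lie to the left of those of the 5 lists, -0.85 to -0.46. Members and lists were chosen with earlier results of these data known.

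Ratios between related members within a library do not depend on the scaling between libraries, and the genotypes were compared for 10 of them. The test was an exact permutation over the 70 assignments of libraries, two-sided, with a smallest p of 0.0286. No ratio passed after adjustment over the 10 ratios (lowest adjusted p = 0.0714). With that smallest p none could pass at 0.05 unless most of the 10 separated the genotypes fully. The lack of a pass therefore does not show that a ratio was unchanged. The genotypes did not overlap for 4 ratios. Cks1b over Cks2 had log2 ratios of 0.48, 0.79, 0.72 and 0.94 in WT and -0.04, 0.23, 0.20 and 0.31 in the knockout libraries, a mean difference of -0.56 (exact permutation p = 0.0286, adjusted p = 0.0714). Unlike the single genes, this ratio placed knockout replicate 1 with the other knockout libraries. Lin9 over Lin54 differed by -0.27, Ckap2 over Ckap2l by 0.50 and Ube2c over Ube2s by -1.08 (each exact permutation p = 0.0286, adjusted p = 0.0714). For Ube2c over Ube2s the gap was small: the lowest WT libraries, replicates 2 and 3, were both at -0.50 and knockout replicate 1 at -0.51.

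The remaining 6 ratios overlapped between genotypes, with knockout replicate 1 at or beyond the WT side. Cdc20 over Fzr1, the early over the late coactivator, was at 1.16, 1.11, 1.09 and 0.85 in WT and at 1.41, 0.33, -0.14 and -0.51 in the knockout libraries (difference -0.78, exact permutation p = 0.143, adjusted p = 0.159). Knockout replicate 1 had the highest of all 8 ratios, and the other knockout libraries the lowest. Plk1 over Plk4 was at 1.63, 1.09, 1.19 and 1.18 in WT and at 1.50, 0.39, 0.06 and -0.65 in the knockout libraries (difference -0.94, exact permutation p = 0.114, adjusted p = 0.159). The 3 ratios of condensin I to condensin II subunits also overlapped. They differed by -0.64 for Ncapd2 over Ncapd3, -0.57 for Ncaph over Ncaph2 and -0.21 for Ncapg over Ncapg2 (exact permutation p = 0.143, 0.143 and 0.286, adjusted p = 0.159, 0.159 and 0.286). In each of these 3, knockout replicates 2, 3 and 4 lay under the lowest WT library. Cdc25b over Cdc25c was 0.63 higher in the knockout libraries (exact permutation p = 0.143, adjusted p = 0.159), with knockout replicate 1 below WT and the other knockout libraries above it.

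**Figure D5:**
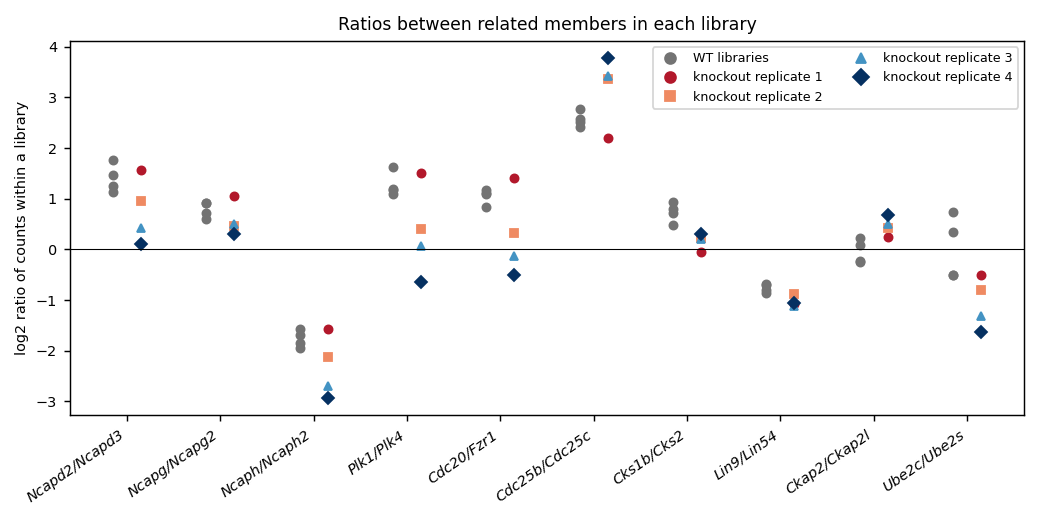
Log2 ratio of the counts of 2 related members within each library (y axis) for 10 pairs (x axis), with WT libraries in grey and knockout libraries in colour. Cks1b over Cks2, Lin9 over Lin54, Ckap2 over Ckap2l and Ube2c over Ube2s separate the genotypes, and in the other 6 pairs knockout replicate 1 lies on the WT side of the other knockout libraries.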

How the data were processed

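The authors deposited raw counts per gene in 2 tables with identical values, and the one with symbols was used. All 8 columns map to a sample by title. HISAT2, StringTie and GRCm38 are named in the submitters' processing notes. The sources at hand name no counting program, strand setting or rule for reads shared between genes. Total counts were 29679405 to 32774905 per library, at which 3 counts are 0.0915 to 0.101 CPM. No 2 libraries of a genotype agreed within sampling noise, so none was merged, which does not show that they came from separate cultures.

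edgeR 4.0.16 in R 4.3.3 was used: TMM factors, filterByExpr (minimum count 10, minimum total 15), glmQLFit and glmQLFTest without covariates, two-sided, with p-values adjusted over the 13265 rows kept. The SE is the fold change over the square root of F. Ratios had 0.5 added to each count. Exon lengths and positions are from GENCODE M21 (GRCm38), and promoters from RefSeq. Values by library are given in each role group for the 2 called genes with the smallest p, the called gene with the largest change and the gene with the largest p, and for ratio pairs. The 2 genes with the smallest p are named in each other list. Values by library of Top2a and Aurka were chosen after they were seen. The members and lists were chosen with earlier results of these data known. Alternatives used DESeq2 1.42.0 and limma 3.58.1, other scalings, filters and thresholds, annotated genes only, a replicate block and each library left out. Levels of each knockout library as a percent of the WT mean were added after seeing the data.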

Additional observations from a re-analysis of the deposited data

Results flagged for a closer look

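In 4 of the 106 groups of 4 libraries examined (members, Tead1, Tead4 and ratios, by genotype), the highest library lay so far from the rest that its gap to the next, as a share of the group's range, exceeded Dixon's critical value. Chance gives about 1 in 20 such groups. All 4 were knockout replicate 1: Aurka at 135 CPM, Bora at 28.1 CPM, Ube2s at 368 CPM and Pttg1 at 61.0 CPM. These groups share that library, so they are not independent of each other. The values of the other knockout libraries stand in the report, and what sets knockout replicate 1 apart was not tested.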

How the results depend on the processing

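The number of members that fell was 36, none rose under any setting run, and all member fold changes kept their sign. It was 36 with DESeq2's size factors, library size only, no filter, at least 5 CPM in 4 libraries or annotated genes only, 35 with upper-quartile factors, 38 with the DESeq2 test and 39 with limma-voom. With an adjusted p under 0.01 it was 19, and against a log2 fold change of 0.5 it was 26. With 1 library left out it was 27 to 41 for members, 1768 to 3409 for all rows lower, 2041 to 3420 for all rows higher, 23 to 42 for the other pathway genes lower and 2 to 3 for those higher. Without knockout replicate 3 the rows lower numbered 1768, and without knockout replicate 2 the other pathway genes lower numbered 23. Of the 36 calls 26 held at 0.05 under every scaling, filter, test and left-out library run, and 10 were lost under at least 1. An adjusted p under 0.01 left 1248 rows lower, 1488 rows higher and 18 other pathway genes lower, and the test against 0.5 left 1053, 1550 and 14, with 1 other pathway gene higher. Other pathway genes called higher numbered 6 under upper-quartile factors and 7 under library size alone. These 2 scalings moved the median of all rows from 0.02 to 0.20 and the median of the members from -1.46 to -1.31 and -1.32, and the share of calls that were higher from 50.4% to 64.6% and 63.5%. The same numbers do not pair libraries (correlation of deviations -0.0317 to -0.00276, none highest for its own number); with the replicate block 39 members fell. For the ratios no setting run brought an adjusted p under 0.05, and those that leave out a library or pair the libraries cannot (smallest p of the paired test 0.125). With all libraries it could be reached only if most of the 10 ratios separated the genotypes fully. The other deposited table holds the same values, so a refit would change nothing. Depth is not what limits these genes, whose lowest count was 241, and the spread among knockout libraries is the larger limit.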
